A study of Mus musculus with 60 samples.

Results

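Ercc1-deficient (D/KO) fibroblasts were followed over their first 2 days of doxycycline without VC, by setting 3 libraries of day 2 against 3 libraries of day 0. The 6 libraries were chosen by the labels for genotype, day and treatment alone, out of 60 libraries in the series and 36 in its reprogramming table, which holds 12 groups. RNA sequencing with poly(A) selection counted reads per gene in cultured tail tip fibroblasts (FBs), grown at 3% O2 in medium with serum. The D/KO cells carry the label 4FJ_ERCC1_(d/-), meaning that their single remaining Ercc1 allele is truncated, and came from a male mouse of 8 weeks. The WT cells carry the label 4FJ_(+/-)_OCT4-GFP and came from a mouse of the other sex aged 22 weeks, so the effect of Ercc1 cannot be told apart from that of sex, age or the individual animal. In the D/KO cells a doxycycline-dependent cassette in the Col1a1 locus encodes Oct4, Klf4, Sox2 and Myc (OSKM) and the ROSA26 locus supplies the M2-rtTA transactivator, whereas the WT cells derive from a separately made reprogrammable line with a cassette of the same factors in the Col1a1 locus and an Oct4 reporter, so differences between the lines can also come from the cassette. Day 0 cells had no doxycycline and day 2 cells had 2 µg/ml, and VC is 50 µg/ml ascorbic acid with 3 µM CHIR99021, a GSK3 inhibitor that activates Wnt signalling. RNA was extracted in triplicate from cells of 1 mouse per line. The p-values therefore measure only the spread between libraries of a group, estimated over all 12 groups together, which may be technical. No day 2 library without doxycycline was analysed here, so 2 days in culture and 2 days of doxycycline cannot be told apart.

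Reprogramming by OSKM begins with an initiation phase in which somatic cells lower genes of their own identity, divide faster and pass through a mesenchymal-to-epithelial transition, before the endogenous pluripotency network is switched on. Fibroblasts are mesenchymal cells that secrete collagen and contract through smooth muscle actin, both promoted by TGFb signalling, whereas epithelial cells are held together by E-cadherin, desmosomes and keratin filaments. ERCC1 forms with XPF, the product of Ercc4, the endonuclease that cuts DNA beside bulky adducts and crosslinks in nucleotide excision repair, and animals without it age early.

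Library totals of the 6 libraries ran from 16647820 to 18230424 counts. Levels are given as CPM, the count divided by the TMM-scaled library size, which is not corrected for gene length and so is compared within a gene only. On log2 CPM across genes, libraries of the same day had a Pearson r of 0.9785 to 0.9875 and libraries of different days 0.9525 to 0.9601. Over genes with enough reads to compare, the variance between day 0 libraries was 24 to 56.9 times that of counting noise and between day 2 libraries 3.26 to 11.7 times. For such genes differences between libraries, and not depth, limited the precision. Values after ± are standard errors of log2 fold changes with n = 3 libraries per group, and adjusted p-values come from edgeR's quasi-likelihood test over all genes tested. Both use a spread estimated over the 36 libraries of the reprogramming table.

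The labelled cell type was checked against marker lists. All 8 fibroblast markers were detected, and their summed level ran from 33100 to 56000 CPM at day 0 and from 29800 to 32000 at day 2. The 6 endothelial markers summed to 738 to 835 CPM in D/KO day 0 libraries, 570 to 654 in D/KO day 2 libraries and 14.7 to 17.5 in WT day 0 libraries, where nearly all of it was Tek. Pecam1, an adhesion molecule of endothelial cells, stood at 191, 213 and 210 CPM in D/KO day 0 libraries and at a mean of 0.142 CPM in WT day 0 libraries. The D/KO cultures therefore held endothelial transcripts that were near 0 in the WT cultures. In these bulk samples, fewer cells of a type and less RNA per cell cannot be told apart. Among 8 immune markers the T cell marker Cd3e was at 0, and the sum was 12.8 to 13.5 CPM at day 0 and 7.89 to 9.43 at day 2. The 5 melanocyte markers summed to at most 1.47 CPM, the 5 Schwann cell markers to 4.47 to 6.96 CPM over both days, and the 4 adipocyte markers were at 0. Of 5 muscle markers only Acta1 was read, at 12.3 to 45.5 CPM at day 0 and 13.9 to 26.5 at day 2, and the 5 chondrocyte markers summed to 99.7 to 155 CPM at day 0 and 97.6 to 111 at day 2.

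**Figure D1:**
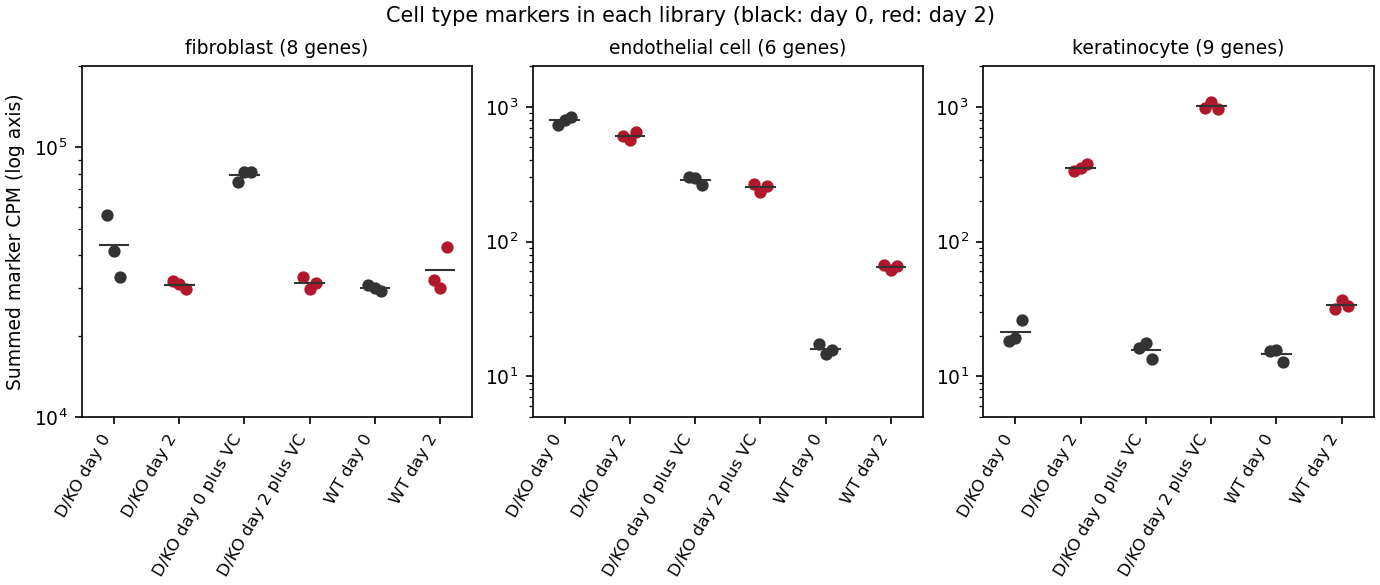
Summed CPM (log axis) of 8 fibroblast, 6 endothelial and 9 keratinocyte marker genes in 6 groups, with 1 point per library. The endothelial sum lies between 570 and 835 CPM in the D/KO libraries without VC and at most at 66.6 CPM in the WT libraries, and the keratinocyte sum goes from 18.4 to 26.3 CPM at day 0 to 333 to 374 CPM at day 2 in D/KO cells.

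At day 2, D/KO FBs had less RNA of many matrix, contractile and TGFb-responsive genes, had gained transcripts of several keratin and desmosome genes that had been at or near 0, and had more RNA of mitosis genes, cyclin D1 and cholesterol synthesis genes. Of 15832 genes tested, 2260 were higher at day 2 (14.3%) and 2085 lower (13.2%) at an adjusted p under 0.05. Together these were 4345 genes, or 27.4%, and the median log2 fold change of all tested genes was -0.00. Rises were more often large than falls: 947 genes rose at least 2-fold and 309 at least 8-fold, against 610 and 33 that fell by as much. Of the genes that rose, 452 had a day 0 mean under 1 CPM and 95 had 0 counts in every day 0 library, whereas 9 of those that fell had 0 counts in every day 2 library. The counts by gene list given below are to be read against the 14.3% higher and 13.2% lower of all tested genes.

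**Figure D2:**
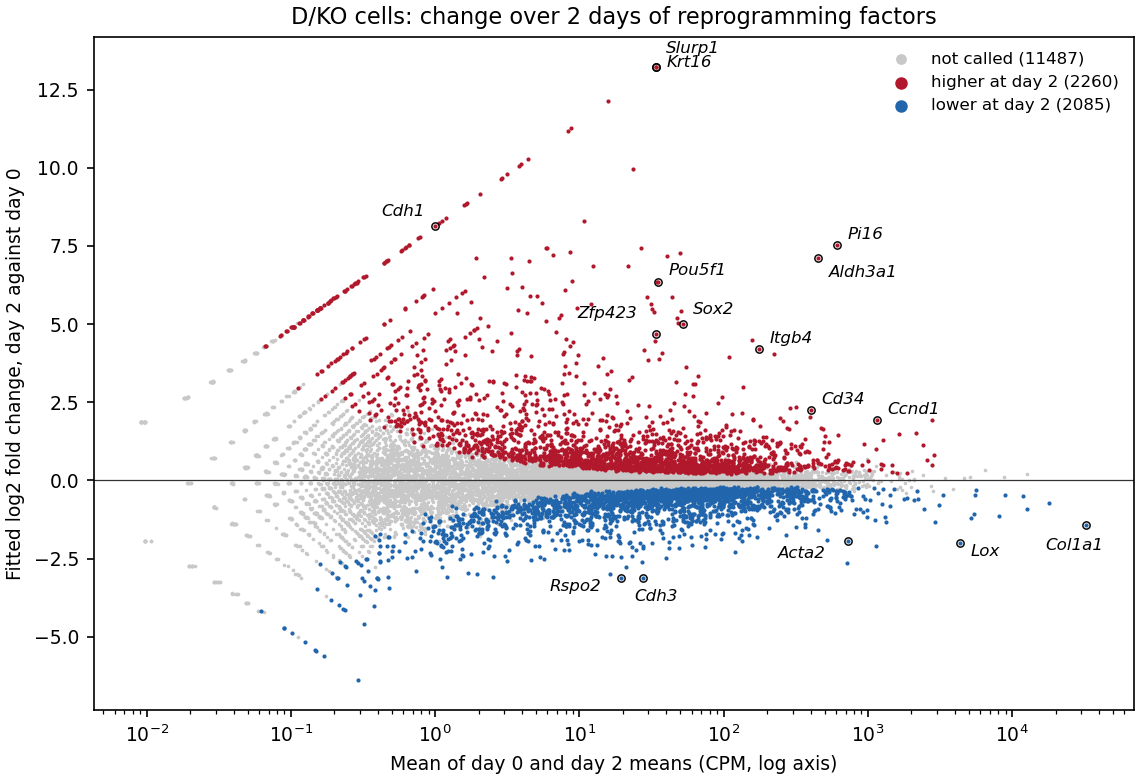
Log2 fold change of day 2 over day 0 in D/KO cells (y axis) against the mean CPM (x axis, log), with 1 point per tested gene, coloured by call. Genes with very large rises, such as Krt16 and Slurp1, had low day 0 levels, and the abundant genes Lox and Col1a1 fell.

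The transcripts of all 4 factors rose. Pou5f1, which encodes Oct4, was at 1.10, 0.938 and 0.471 CPM at day 0 and at 62.2, 68.2 and 76.0 at day 2. Sox2 went from 3.48, 3.34 and 2.71 to 94.8, 97.5 and 110 CPM. For both genes every day 2 library lay far above every day 0 library, with log2 fold changes of 6.36 ± 0.39 (adjusted p = 1.47e-15) and 4.99 ± 0.28 (adjusted p = 1.06e-16). Klf4, already at 97.9, 117 and 69.1 CPM, reached 232, 232 and 224 (log2 fold change 1.28 ± 0.18). Myc went from 62.7, 68.7 and 64.5 to 259, 258 and 244 CPM (1.96 ± 0.11). These 2 genes thus had substantial reads before doxycycline, and in neither did the groups overlap. Reads of the cassette and of the endogenous genes cannot be separated in these counts, and Sox2 lies inside Sox2ot on the same strand. Ercc1 was read at 11.9, 11.9 and 18.6 CPM at day 0 and at 9.78, 11 and 13.0 at day 2. These values overlapped (log2 fold change -0.33 ± 0.17, adjusted p = 0.155). Its locus (chromosome 7, 19075881 to 19090450, plus strand, GRCm39) overlaps Polr1g on the other strand, and a truncated allele can still give reads, so the level is no measure of the protein.

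Most endogenous pluripotency genes had few or no reads. Of 30 early pluripotency genes listed, 18 had too few reads to be tested, among them Nanog with 9 counts over the 6 libraries, 1 was not matched by symbol, and of the 11 tested 2 rose and 3 fell (median log2 fold change -0.55). The rises were 1 without day 0 replicate 2 or day 2 replicate 2, where the call of Trim71 was lost (1.28 and 1.55), and the falls 5 without day 2 replicate 3. L1td1, an RNA-binding protein of pluripotent cells, was at 0 in all 3 libraries at day 0 and at 6.44, 4.53 and 6.49 CPM at day 2, at least 96.3-fold higher against a floor of 3 counts over the group. Klf2 and Klf5, Krüppel-like factors able to stand in for Klf4 in reprogramming, fell, with log2 fold changes of -1.82 ± 0.19 and -1.56 ± 0.28. Fut4, an enzyme linked to the SSEA1 surface antigen, fell as well (-1.10 ± 0.22), which does not measure the antigen.

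**Figure D3:**
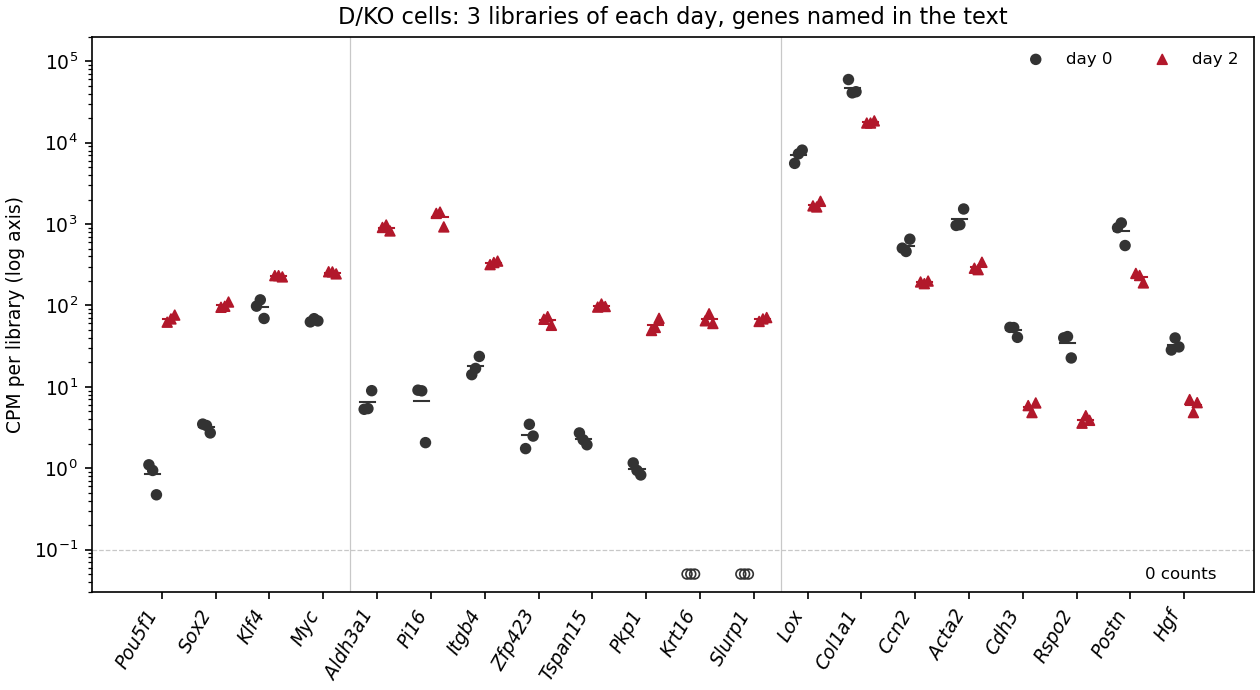
CPM (log axis) of 20 genes in the 3 day 0 (circles) and 3 day 2 (triangles) D/KO libraries, with lines at the group means and open circles at the bottom for 0 counts. For each of these 20 genes the day 0 and day 2 libraries do not overlap. This was required of those named for the size or the p-value of their change.

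The largest rises by fold included genes of stratified epithelium and others. Krt16, a keratin of activated keratinocytes (chromosome 11, 100136917 to 100139795, minus strand, GRCm39), was at 0 in all 3 libraries at day 0 and at 64.7, 78.9 and 59.9 CPM at day 2, at least 1120-fold higher (adjusted p = 7.17e-17). Slurp1, a secreted keratinocyte protein, was likewise at 0 in all 3 libraries and then at 63.5, 68.2 and 70.9 CPM, also at least 1120-fold higher, though it overlaps Them6 on the other strand. Nccrp1 was at 0 in all 3 libraries and then at 26.3, 31.1 and 37.7 CPM, at least 525-fold higher. All 3 genes had no read at day 0 and were read in every day 2 library. Genes named for the size or the p-value of their change had to be without overlap between the days, so that separation is part of how they were chosen and no further support. Among the other genes with 0 counts at day 0, the day 2 level was at least 288-fold higher for the homeobox gene Tlx2, 276-fold for Fam180a, 146-fold for the ligand gene Wnt9b, 130-fold for Lypd2, 126-fold for the natriuretic peptide gene Nppc, 105-fold for the cytochrome P450 gene Cyp4f39 and 94.8-fold for the mucosal keratin Krt13. Efhd1, a mitochondrial calcium-binding protein, went from 2 counts over the 3 day 0 libraries to 2478 at day 2, a ratio of 1160 with a 95% counting interval of 320 to 9570.

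By family, 22 keratins and 29 cornified envelope genes were listed, and 16 and 9 of them had enough reads to be tested. Of the tested members 9 keratins rose and 1 fell, and 7 cornified envelope genes rose and 1 fell. The filter on low counts ran over all 36 libraries, so a gene near 0 at day 0 entered the test through its reads at day 2 or in other groups, and 5 tested keratins and 3 tested cornified envelope genes were under 1 CPM at both D/KO day 0 and day 2. These counts therefore say nothing of the families as a whole, and untested members such as Ivl and Flg had at most 2 counts over the 6 libraries. Krt14, the keratin of basal cells, went from 0.129, 0.117 and 0.00 to 10.7, 10.1 and 18.4 CPM. Krt84, a hair keratin, went from 3 counts to 1145, a ratio of 357 with an interval of 122 to 1730. Sprr3, a precursor of the cornified envelope, was at least 54.2-fold higher. The groups did not overlap in these genes. The member of each family that fell was Krt18, a keratin of simple epithelium, whose call was lost without any 1 of the 6 libraries (-2.32 to -1.96), and Cdsn, which encodes corneodesmosin (-1.88 ± 0.20).

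Of 14 desmosome genes listed, 6 had too few reads to be tested, and of the 8 tested 6 rose and 1 fell, with the same limit. Pkp1, a desmosomal plaque protein, was at 1.16, 0.938 and 0.825 CPM at day 0 and at 49.2, 53.6 and 69.3 at day 2 (log2 fold change 5.88 ± 0.28, adjusted p = 1.30e-18). Its groups were far apart. Perp and Dsp, which encodes desmoplakin, rose with log2 fold changes of 4.52 ± 0.34 and 3.35 ± 0.24. Evpl, encoding envoplakin, rose from 8 counts over the 3 day 0 libraries to 529 at day 2 (5.89 ± 0.40), and its fold change moved to 8.10 without day 0 replicate 1. Itgb4, the hemidesmosome integrin (overlapping Galk1), went from 14.1, 16.8 and 23.6 to 317, 336 and 350 CPM. It made up most of the summed level of 9 keratinocyte markers at day 2, and 5 of the 7 tested markers rose, 3 without day 0 replicate 1 or 2. Dsg3 was at 0 on both days and Krt5 at 0 at day 0. The part that keratinocytes in the culture might have in these rises was not tested.

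Classical adhesion genes and transcription factors of the transition gave fewer calls. Of 18 tested cadherins and epithelial adhesion genes, 3 rose and 4 fell (median -0.25). Cdh1, encoding E-cadherin, was at 0 in all 3 libraries at day 0 and at 2.30, 2.38 and 1.31 CPM at day 2, at least 32.7-fold higher. Cdh3, encoding P-cadherin, went the other way, from 53.7, 53.4 and 40.5 to 5.87, 4.82 and 6.33 CPM (log2 fold change -3.11 ± 0.22, adjusted p = 6.60e-14). In both genes the groups did not overlap, and the day 2 level of Cdh1 stayed low. The mesenchymal cadherin gene Cdh11 fell (-0.92 ± 0.10). Of 9 EMT transcription factors 3 fell and 2 rose, with Snai1 at -0.99 ± 0.21, Snai2 at -0.81 ± 0.11, Prrx1 at 0.45 ± 0.10 and Tcf4 at 0.52 ± 0.10, while the third that fell, Twist2, lost its call in 5 of the 6 fits without a library (-0.69 to -0.39). Zeb1, Zeb2, Twist1 and Foxc2 did not pass the test, with log2 fold changes of -0.03, -0.12, 0.20 and -0.39. Of 21 epithelial transcription factors 11 were untested for low counts, and of the 10 tested 2 rose and 1, Klf5, fell. Trp63, a master regulator of stratified epithelium, rose from 0.0645, 0.235 and 0.00 to 2.42, 1.28 and 1.15 CPM (3.9 ± 0.61, and 5.41 without day 0 replicate 2, since day 0 holds 5 counts), and Ehf was at least 5.92-fold higher.

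Genes with the smallest p-values among rises had large changes. Aldh3a1, an aldehyde dehydrogenase (chromosome 11, 61098363 to 61109247, plus strand, GRCm39), went from 5.29, 5.40 and 8.96 to 907, 972 and 822 CPM (log2 fold change 7.10 ± 0.22, adjusted p = 3.45e-23). Pi16, a surface marker of a progenitor-like fibroblast state, went from 9.09, 8.92 and 2.06 to 1.35e+03, 1.40e+03 and 921 CPM (7.52 ± 0.28, adjusted p = 1.98e-21). Tspan15, a tetraspanin that regulates ADAM10, went from 2.71, 2.23 and 1.94 to 95.3, 104 and 96.9 CPM. Zfp423, a zinc finger regulator of preadipocytes, and Vit, encoding the matrix protein vitrin, rose with log2 fold changes of 4.67 ± 0.17 and 3.09 ± 0.10.

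Lox, the lysyl oxidase that crosslinks collagen, was at 5.56e+03, 7.28e+03 and 8.09e+03 CPM at day 0 and at 1.67e+03, 1.62e+03 and 1.90e+03 at day 2 (log2 fold change -2.01 ± 0.13, adjusted p = 3.45e-15). Col1a1, which encodes the main chain of type I collagen, went from 5.96e+04, 4.09e+04 and 4.22e+04 to 1.74e+04, 1.74e+04 and 1.85e+04 CPM (-1.42 ± 0.16). The groups did not overlap in either gene, and the cassette sits in the Col1a1 locus. Of 22 collagen chains 13 fell and 2 rose (median -0.60), of 19 crosslinking and folding enzymes 10 fell and 0 rose (median -0.50), and of 16 metalloproteinases and inhibitors 7 fell and 2 rose (median -0.40). Among those that fell were Col5a3 (-1.74 ± 0.15), Loxl1 (-1.05 ± 0.10) and the prolyl hydroxylase genes P4ha2 (-1.06 ± 0.14) and P4ha3 (-1.26 ± 0.13). The collagens that rose were Col11a1 (1.07 ± 0.20) and Col8a1 (0.61 ± 0.12), and Timp2, an inhibitor of metalloproteinases, rose as well (0.48 ± 0.09), while the rise of Timp3 was lost without day 0 replicate 1 (0.42) or day 2 replicate 3 (0.44). Col3a1 was called lower, but its libraries overlapped, at 1.97e+04, 1.30e+04 and 8.52e+03 CPM against 1.09e+04, 1.02e+04 and 8.28e+03, and its call was lost without day 0 replicate 1 (-0.14), day 2 replicate 2 (-0.52) or day 2 replicate 3 (-0.38). The 20 most abundant genes held 20.7% of all CPM at day 0 and 13.3% at day 2, and of these 13 fell and 0 rose.

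Of 22 contractile genes 14 fell and 0 rose (median -0.64). Acta2, the smooth muscle actin that marks myofibroblasts (overlapping Stambpl1), went from 961, 981 and 1.53e+03 to 286, 275 and 339 CPM (log2 fold change -1.95 ± 0.17, adjusted p = 1.02e-11). Its groups did not overlap. Lmod1, an actin nucleator of smooth muscle, the tropomyosin gene Tpm1 and the myosin light chain gene Myl9 fell too (-2.01 ± 0.26, -1.21 ± 0.09 and -1.41 ± 0.16).

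Of 19 TGFb targets 13 fell and 1 rose (median -0.85). Ccn2, a matricellular growth factor, was at 505, 460 and 651 CPM at day 0 and at 194, 185 and 199 at day 2 (log2 fold change -1.48 ± 0.18, adjusted p = 2.51e-08). Each day 2 library was below each day 0 library. The collagen-binding integrin gene Itga11 fell (-1.51 ± 0.15), and the target that rose was Klf10, an early TGFb response gene (1.87 ± 0.15). Upstream, 15 of 33 ligands, receptors, binding proteins and Smads fell and 4 rose. The ligand genes Tgfb1 and Tgfb3 fell (-1.10 ± 0.12 and -0.85 ± 0.10), while the receptor genes Tgfbr2 and Acvrl1 rose (0.75 ± 0.09 and 0.88 ± 0.13). In the BMP list 5 of 18 rose and 5 fell. The ligand gene Bmp6 (overlapping Txndc5) went from 12.5, 12.6 and 16.1 to 97.5, 102 and 83.2 CPM, and Id1, a response gene, rose (1.42 ± 0.29). The antagonist gene Chrdl1 fell (-1.22 ± 0.19) whereas Grem1 rose (0.88 ± 0.19).

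**Figure D4:**
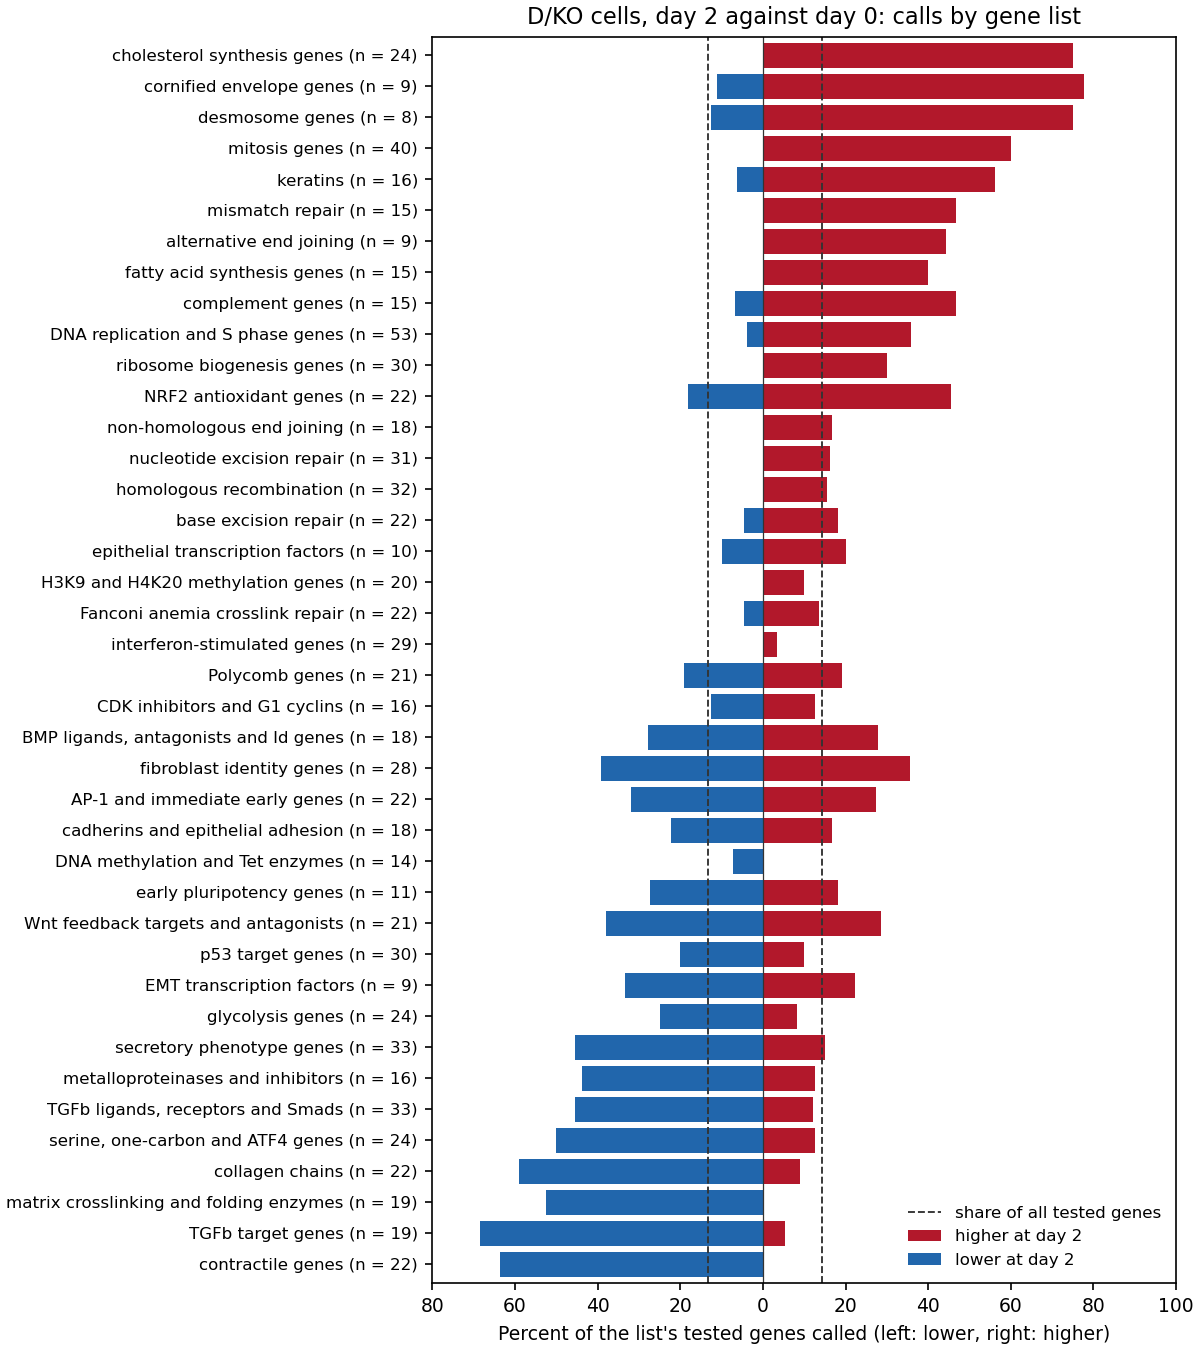
Percent of tested members called higher and lower at day 2 for each of 40 gene lists with at least 8 tested genes, with dashed lines at the shares over all tested genes (14.3% higher and 13.2% lower). Mitosis and cholesterol lists have calls on the higher side alone, and contractile and crosslinking lists on the lower side alone, while shares of keratin, desmosome and cornified envelope genes leave out members too low to test.

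Fibroblast identity genes went both ways, with 10 of 28 higher and 11 lower (median 0.07), the latter 7 without day 2 replicate 3. Postn, encoding the matrix protein periostin, went from 901, 1.03e+03 and 544 to 247, 233 and 189 CPM (-1.89 ± 0.19). Cd34, a surface marker of dermal fibroblasts and other progenitors, went from 126, 144 and 142 to 688, 684 and 610 CPM (2.26 ± 0.13). The groups of both genes lay apart, in opposite directions. The PDGF receptor genes Pdgfra and Pdgfrb and the lumican gene Lum fell (-0.79 ± 0.12, -0.83 ± 0.09 and -1.31 ± 0.13), and the surface peptidase gene Mme and Thy1 rose (1.99 ± 0.18 and 0.58 ± 0.12). Dcn, encoding decorin, stood at 0.04 ± 0.17 (adjusted p = 0.915).

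The largest falls held several secreted signalling genes. Rspo2, a potentiator of Wnt signalling, went from 39.9, 41.4 and 22.6 to 3.57, 4.41 and 3.87 CPM (-3.13 ± 0.27), with every day 2 library below every day 0 library. The growth factor gene Hgf, the protease gene Adam8 and F3, encoding tissue factor, fell (-2.45 ± 0.22, -2.77 ± 0.24 and -2.49 ± 0.20), as did Sytl2, St8sia2, Kcne3 and the transcription factor gene Sp5 (-3.00, -2.55, -2.45 and -2.56). By p-value the leading falls besides Lox were Lrrc17 (-1.76 ± 0.11), Crispld2 (-2.0 ± 0.13), the semaphorin gene Sema7a (-2.42 ± 0.15), the small GTPase gene Rhob (-1.39 ± 0.09) and the apelin gene Apln, which went from 206, 185 and 241 to 58.0, 53.1 and 55.2 CPM. Lyve1, a receptor of lymphatic endothelium, fell (-2.60 ± 0.29), as did Irf8, an interferon regulatory factor of myeloid cells (-2.52 ± 0.43). Beside Lyve1 and Apln, the endothelial markers Cdh5, Kdr and Emcn were lower (-1.0, -0.77 and -0.86), Tek was higher (1.73) and Pecam1 stood at -0.18 (adjusted p = 0.373). Their part in these falls was not tested.

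Of 33 genes of the senescence-associated secretory list 15 fell and 5 rose (median -0.66). Csf1, a macrophage growth factor, the plasminogen activator gene Plat and the chemokine gene Cxcl12 fell (-1.08 ± 0.09, -1.82 ± 0.14 and -1.55 ± 0.15), whereas the decoy receptor gene Tnfrsf11b and Igfbp6 rose (1.60 ± 0.11 and 1.64 ± 0.15). Cdkn1a, encoding the cell cycle inhibitor p21, was at 518, 529 and 514 CPM at day 0 and at 566, 592 and 522 at day 2 (0.11 ± 0.10, adjusted p = 0.470). Its groups overlapped. Cdkn2a stood at -0.29 ± 0.15 (adjusted p = 0.149) and its neighbour Cdkn2b fell (-0.85 ± 0.14). Of 30 p53 targets 3 rose and 6 fell (median -0.13), against 14.3% higher and 13.2% lower over all genes tested. The autophagy gene Dram1 was lower (-1.29 ± 0.12) and the stress gene Sesn1 higher (0.74 ± 0.16).

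Of 40 mitosis genes 24 rose and 0 fell (median 0.55), and of 53 genes of DNA replication and S phase 19 rose and 2 fell (median 0.30). The number that rose fell to 14 of the mitosis genes without day 2 replicate 3 and to 11 of the replication genes without day 0 replicate 2 or day 2 replicate 3. Ccnd1, the cyclin D1 gene that drives G1 progression, went from 469, 472 and 508 to 1.87e+03, 1.83e+03 and 1.82e+03 CPM (1.93 ± 0.12, adjusted p = 2.93e-15). Mki67, the proliferation marker, went from 19.8, 20.5 and 16.9 to 32.6, 32.9 and 46.7 CPM (0.97 ± 0.26, adjusted p = 0.00408). In both genes every day 2 library was above every day 0 library. Anln, which acts in cytokinesis, the spindle gene Nusap1, the ribonucleotide reductase gene Rrm2 and the repressor gene E2f7 rose (1.19 ± 0.18, 1.23 ± 0.24, 1.46 ± 0.20 and 1.82 ± 0.20), while E2f1 fell (-0.44 ± 0.11). Pcna, the replication clamp, was called higher, but without day 0 replicate 1 it stood at 0.36 and did not pass.

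Promoters of mitosis genes are shown because the letters CCAAT, bound by NF-Y, and TTTGAA, the core of the cell cycle homology region (CHR), recur in them. In windows from 250 bases before to 50 bases after each start in RefSeq (GRCm38.p6), read on both strands, TTTGAA stood in 23 of 32 mitosis windows (71.9%), against 12% of the 11280 windows of tested genes and 18.1% of all 27025 windows. CCAAT stood in 24 of 32 (75%), against 38.3% and 37.8%. By call, TTTGAA stood in 15 of 20 windows of members that rose and 8 of 12 not called, and CCAAT in 16 of 20 and 8 of 12. These letters, and those given below for the cholesterol and ATF4 lists, were chosen after values had been seen, and a match describes letters and not a bound site. In each list the windows shown were picked among called members that hold the letters. Cdca8, a subunit of the chromosomal passenger complex, went from 5.09, 5.69 and 7.01 to 9.95, 12.9 and 12.2 CPM (0.98 ± 0.16). Prc1, which bundles spindle microtubules and was picked after its values were seen, went from 8.70, 11.4 and 13.1 to 21.8, 16 and 21.6 CPM (0.84 ± 0.17). In both genes the groups did not overlap. The windows are chr4:124936868-124937167 (minus strand) and chr7:80294201-80294500 (plus strand), written 5′ to 3′ along the gene, with CCAAT, its complement ATTGG and TTTGAA in capitals. In Prc1, CCAAT begins 37 bases and TTTGAA 5 bases before the start. In Cdca8, ATTGG begins 85, 51 and 11 bases before the start, and TTTGAA overlaps a further ATTGG after it.
Cdca8: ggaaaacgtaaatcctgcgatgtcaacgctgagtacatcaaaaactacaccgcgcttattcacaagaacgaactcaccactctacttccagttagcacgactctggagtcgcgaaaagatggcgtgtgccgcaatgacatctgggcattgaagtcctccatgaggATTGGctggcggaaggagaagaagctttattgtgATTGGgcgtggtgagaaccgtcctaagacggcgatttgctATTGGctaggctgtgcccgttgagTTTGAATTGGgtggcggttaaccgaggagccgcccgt
Prc1: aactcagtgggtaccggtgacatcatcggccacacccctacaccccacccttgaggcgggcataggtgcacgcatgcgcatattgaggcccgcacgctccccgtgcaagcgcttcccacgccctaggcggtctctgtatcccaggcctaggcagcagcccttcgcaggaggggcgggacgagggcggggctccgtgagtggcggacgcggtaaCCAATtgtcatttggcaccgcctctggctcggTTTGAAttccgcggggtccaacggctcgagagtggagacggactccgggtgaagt

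Calls in the DNA repair lists were mostly upward. In nucleotide excision repair 5 of 31 rose and 0 fell (median 0.07), in homologous recombination 5 of 32 and 0 (0.27), in the Fanconi anemia list 3 of 22 and 1 (0.07), and in non-homologous end joining 3 of 18 and 0 (0.25). In alternative end joining 4 of 9 rose and 0 fell (0.41), in mismatch repair 7 of 15 and 0 (0.27) and in base excision repair 4 of 22 and 1 (0.08). The share that rose was above the 14.3% of all genes tested in mismatch repair and alternative end joining, and nearer to it in the other 5 lists. Several of these counts rest on 1 library. Mismatch repair had 3 without day 0 replicate 3 or day 2 replicate 1, nucleotide excision repair 2 without day 0 replicate 3, and homologous recombination 3 without day 0 replicate 1 or day 2 replicate 3. End joining had 0 without day 2 replicate 2, and base excision repair 2 without day 0 replicate 1, day 0 replicate 2 or day 2 replicate 2. The falls of Fancf and Nthl1 were each lost in 5 of 6 such fits. Usp1, the deubiquitinase of FANCD2 and PCNA, went from 27.9, 29.0 and 26.0 to 126, 122 and 126 CPM (2.17 ± 0.10, adjusted p = 6.27e-19). Ercc4, the partner of Ercc1, went from 18.4, 18.3 and 16.1 to 25.1, 25.7 and 21.8 CPM (0.46 ± 0.11, adjusted p = 0.00219). The groups did not overlap in either gene, and the rise of Usp1 was several times that of Ercc4. The recombination genes Brca1 and Brca2, both at low levels, rose (1.21 ± 0.24 and 1.12 ± 0.27), as did Parp1, which senses strand breaks (0.64 ± 0.10), Rpa1, which coats single-stranded DNA (0.58 ± 0.08), the scaffold gene Xrcc1 (0.54 ± 0.15) and Fanci, the partner of FANCD2 (1.25 ± 0.28).

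Of 24 cholesterol synthesis genes 18 rose and 0 fell (median 0.57), and of 15 fatty acid synthesis genes 6 rose and 0 fell (median 0.28). Mvd, which makes isopentenyl diphosphate, went from 20.3, 19 and 21.6 to 45.2, 50.7 and 49.8 CPM (1.26 ± 0.16). Idi1, the isomerase of the next step, went from 16.4, 16.1 and 17.9 to 38.4, 31.3 and 34.5 CPM (1.05 ± 0.12). The groups did not overlap in either. The squalene epoxidase gene Sqle, the sterol reductase gene Tm7sf2 and the desaturase gene Scd1 rose (0.59 ± 0.09, 1.30 ± 0.20 and 1.10 ± 0.12). The windows of Idi1 and Mvd are shown because CCAAT was in 15 of 16 cholesterol windows (93.8%), against the 38.3% of tested genes. By call these were 13 of 14 members that rose and 2 of 2 not called. The sterol element TCACCCCAC was in 1 of 16 (6.25%), against 0.541%. Matches of CCAAT or ATTGG, in capitals, begin 45 and 14 bases before the start of Idi1, at chr13:8885356-8885655 (plus strand), and 60 and 27 bases before that of Mvd, at chr8:122443373-122443672 (minus strand).
Idi1: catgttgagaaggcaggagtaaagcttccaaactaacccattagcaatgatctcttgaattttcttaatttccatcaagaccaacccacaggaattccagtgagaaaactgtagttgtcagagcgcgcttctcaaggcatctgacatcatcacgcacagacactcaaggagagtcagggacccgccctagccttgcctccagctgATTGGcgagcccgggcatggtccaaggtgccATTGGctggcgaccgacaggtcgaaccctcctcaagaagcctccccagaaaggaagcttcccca
Mvd: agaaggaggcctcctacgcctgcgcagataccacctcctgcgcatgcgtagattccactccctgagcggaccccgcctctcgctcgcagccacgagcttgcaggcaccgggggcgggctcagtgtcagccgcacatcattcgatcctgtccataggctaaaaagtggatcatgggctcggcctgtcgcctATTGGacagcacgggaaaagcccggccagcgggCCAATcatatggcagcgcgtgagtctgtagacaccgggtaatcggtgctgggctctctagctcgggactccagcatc

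Of 24 genes of serine synthesis, one-carbon metabolism and the ATF4 stress response 12 fell and 3 rose (median -0.37). Slc1a4, an amino acid transporter, went from 147, 160 and 157 to 72.1, 69.7 and 75.6 CPM (-1.09 ± 0.10). Trib3, a pseudokinase induced by ATF4, went from 189, 150 and 61.0 to 45.5, 53.2 and 23.9 CPM (-1.71 ± 0.25). In both genes each day 2 library lay below each day 0 library. The transporter gene Slc7a5 and the mitochondrial folate gene Mthfd2 fell (-0.90 ± 0.13 and -0.79 ± 0.13), and the stress gene Nupr1 rose (1.46 ± 0.19). The windows of Slc1a4 and Trib3 are shown for the composite element TGATGNAA, bound by ATF4 with C/EBP factors, which stood in 7 of 23 windows of the list (30.4%), against 2.17% of tested genes and 4.07% of all windows. By call these were 4 of 11 members that fell, 2 of 9 not called and 1 of 3 that rose. Its complement, in capitals, begins 4 bases before the start of Slc1a4 at chr11:20332664-20332963 (minus strand) and lies after that of Trib3 at chr2:152344011-152344310 (minus strand).
Slc1a4: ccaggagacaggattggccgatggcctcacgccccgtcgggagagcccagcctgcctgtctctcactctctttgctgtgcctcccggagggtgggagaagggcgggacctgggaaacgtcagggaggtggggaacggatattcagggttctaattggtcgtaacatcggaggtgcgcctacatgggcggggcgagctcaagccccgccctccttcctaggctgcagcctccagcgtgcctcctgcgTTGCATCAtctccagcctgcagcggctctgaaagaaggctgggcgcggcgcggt
Trib3: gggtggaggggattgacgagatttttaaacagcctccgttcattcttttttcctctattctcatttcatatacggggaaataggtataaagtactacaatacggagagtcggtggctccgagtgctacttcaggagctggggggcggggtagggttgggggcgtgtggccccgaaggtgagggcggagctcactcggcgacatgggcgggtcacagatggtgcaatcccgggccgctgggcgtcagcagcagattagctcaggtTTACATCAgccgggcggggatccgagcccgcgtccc

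Of 22 NRF2 antioxidant genes 10 rose and 4 fell (median 0.31), with the detoxifying enzyme genes Nqo1 and Gsta4 higher (1.81 ± 0.19 and 1.79 ± 0.16) and the heme oxygenase gene Hmox1 lower (-0.65 ± 0.14). Of 30 ribosome biogenesis genes 9 rose and 0 fell (median 0.25), with 5 higher without day 2 replicate 1. The nucleolar gene Npm1 rose (0.49 ± 0.11), and Ncl stood at 0.35 ± 0.14 (adjusted p = 0.0687). Of 24 glycolysis genes 6 fell and 2 rose (median -0.21), with the glucose transporter gene Slc2a1 lower (-1.20 ± 0.15) and Pfkfb4 higher (1.82 ± 0.18). Of 15 complement genes 7 rose and 1 fell (median 0.25). Cd55, a brake on complement at the cell surface, went from 12.1, 13.8 and 12.5 to 115, 108 and 106 CPM, and Serping1, the C1 inhibitor, rose as well (2.34 ± 0.17).

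Of 22 AP-1 and immediate early genes 6 rose and 7 fell. Fos went from 60.3, 49.9 and 17.8 to 230, 226 and 106 CPM (2.14 ± 0.35). Egr1 rose (1.19 ± 0.19), and Klf6 and Fosl2 fell (-0.93 ± 0.10 and -0.72 ± 0.11). Of 21 Wnt feedback targets and antagonists 6 rose, 3 of them without day 0 replicate 2 or day 2 replicate 3, and 8 fell. Axin2, a feedback target of beta-catenin, rose from 0.129, 0.293 and 0.236 to 0.978, 0.754 and 1.25 CPM, and Sfrp2, an antagonist, fell (-2.41 ± 0.28). Of 29 interferon-stimulated genes 1, Zbp1, rose (2.20 ± 0.37) and 0 fell. Of 14 DNA methylation and Tet genes 0 rose and 1, the methyl-CpG reader Mbd2, fell (-0.47 ± 0.10). Of 20 H3K9 and H4K20 methylation genes 2 rose and 0 fell, with the rise of Kmt5a lost in 4 of the 6 fits without a library (0.29 to 0.32). Of 21 Polycomb genes 4 rose, with the chromodomain gene Cbx2 (1.46 ± 0.22) and the methyltransferase gene Ezh1 (0.95 ± 0.11) among them, and 4 fell, 1 of them without day 0 replicate 2.

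Letters known to be bound by the factors were counted in the promoter windows of the 1675 genes that rose and 1533 that fell and had a window. The octamer ATGCAAAT, bound by Oct4, stood in 1.55% of windows of genes that rose and 1.7% of genes that fell, against 1.38% of all tested genes. For the Sox letters CATTGTT the shares were 1.97%, 1.57% and 1.91%, for the Klf letters GGGTGTGG 4.36%, 2.8% and 3.6%, and for the E-box CACGTG, bound by Myc, 9.19%, 9.33% and 9.65%. The AP-1 letters TGANTCA stood in 5.91%, 5.87% and 5.24%. Over all windows of the genome table these letters stood in 1.74%, 3.85%, 3.58%, 7.09% and 7.91%. All were read on both strands, and no share was tested.

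The same 2 days in WT cells served as the comparison for Ercc1. In WT cells 991 genes were higher (6.26%) and 681 lower (4.3%). Of the 2260 genes that rose in D/KO cells, 1877 had a positive change in WT cells, and 687 were called higher there, which is 30.4% of the D/KO list and 69.3% of the WT list. Of the 2085 that fell, 1712 had a negative change in WT cells, and 498 were called lower, 23.9% of the D/KO list and 73.1% of the WT list. Calls in opposite directions numbered 6 and 17. The D/KO change minus the WT change was itself tested, and it was called higher for 543 genes (3.43%) and lower for 493 (3.11%). The lower count stood at 307 without WT day 0 replicate 3.

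**Figure D5:**
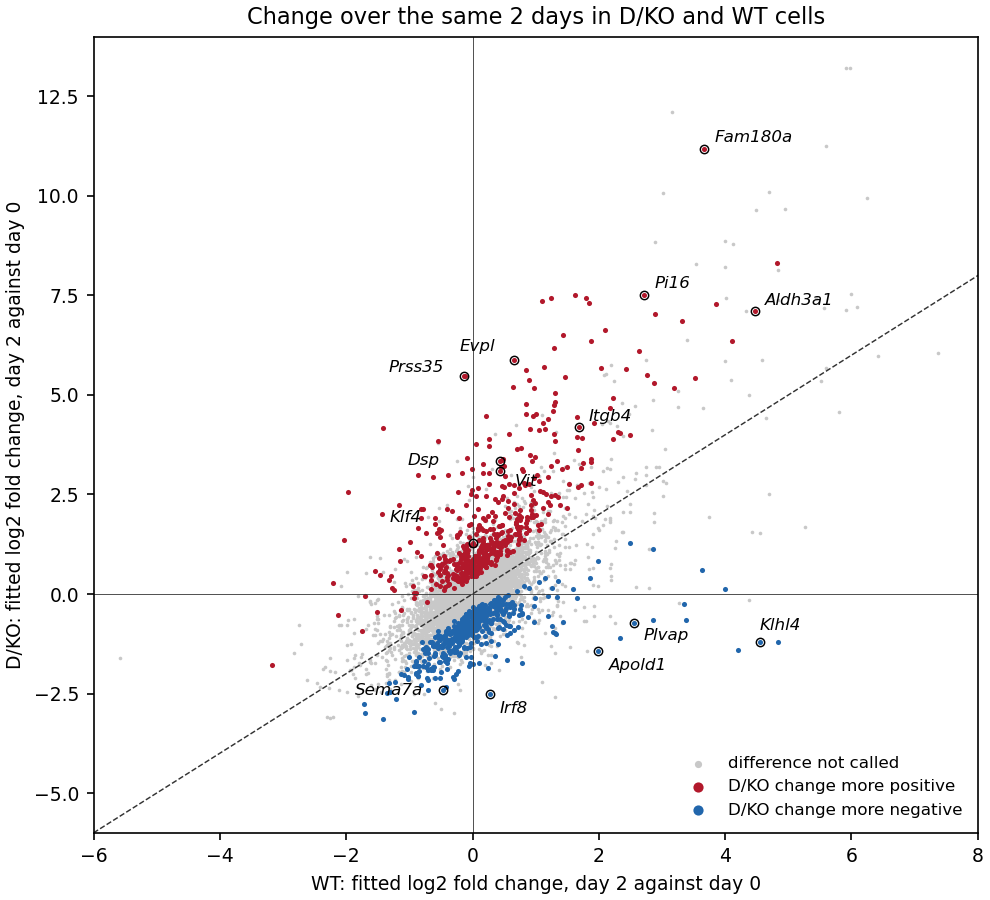
Log2 fold change of day 2 over day 0 in D/KO cells against that in WT cells for 12875 genes, coloured where the difference between the changes passed the test (red higher and blue lower in D/KO). The dashed line marks equal change.

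Among the factors, Pou5f1 went from a mean of 1.96 CPM to 34.3 in WT cells, and its log2 change was larger in D/KO cells by 2.25 ± 0.58 (adjusted p = 0.0119), a call lost without D/KO day 0 replicate 3 (1.96) or WT day 0 replicate 3 (2.03). Klf4 had a mean of 193 CPM at day 0 and 194 at day 2 in WT cells, a difference of 1.27 ± 0.26 (adjusted p = 0.00120). For Sox2 and Myc the differences were 0.60 ± 0.41 (adjusted p = 0.456) and 0.06 ± 0.15 (adjusted p = 0.902), and did not pass. Prss35, a serine protease-like gene, went from 1.87, 1.41 and 0.943 to 52.5, 57.0 and 78.7 CPM in D/KO cells and from a mean of 23.9 to 21.6 in WT cells (difference 5.63 ± 0.31, adjusted p = 2.48e-15). Its D/KO day 0 libraries were thus all far below the WT mean and its D/KO day 2 libraries all above it. Pi16 rose in both lines (2.71 in WT), from a WT mean of 142 CPM, and differed by 4.80 ± 0.32. Aldh3a1, Vit, Itgb4 and Zfp423 differed by 2.63 ± 0.29, 2.66 ± 0.14, 2.52 ± 0.21 and 2.49 ± 0.24. Fitted differences of Fam180a (7.54), Tspan32 (5.65), Evpl (5.22) and Cyp2s1 (5.46) rest on D/KO day 0 libraries with 0 or few counts and depend on the prior count of the fit.

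Among genes that fell, the difference was -0.88 ± 0.17 for Lox (adjusted p = 0.000842) and -1.05 ± 0.22 for Col1a1. Acta2 had log2 changes of -1.95 in D/KO and -2.18 in WT cells, a difference of 0.23 ± 0.23 (adjusted p = 0.662). By list, the difference was lower for 6 of 19 TGFb targets, 5 of 22 collagens, 11 of 33 secretory genes, 8 of 28 fibroblast identity genes and 2 of 22 contractile genes, and higher for 0, 0, 2, 4 and 1 of the same lists, against 3.11% lower and 3.43% higher over all genes. Leaving out 1 library took the lower counts down to 3 TGFb targets (D/KO day 2 replicate 1 or 2 or WT day 0 replicate 3), 3 collagens (D/KO day 0 replicate 1 or WT day 2 replicate 3) and 7 secretory genes (D/KO day 2 replicate 2). For contractile genes 7 of the 12 such fits left 0. Of the contractile genes 12 fell in WT cells. Of the mitosis genes 2 of 40 rose in WT cells (median 0.07), and the difference was higher for 6, Anln among them (1.00 ± 0.26, lost in 4 of 12 fits without a library), but for 1 without D/KO day 0 replicate 1 or WT day 2 replicate 3. In repair the difference was higher for 1 of 31 nucleotide excision, 3 of 32 recombination, 2 of 22 Fanconi anemia, 0 of 18 end joining, 2 of 9 alternative end joining, 0 of 15 mismatch and 1 of 22 base excision repair genes, and lower for 0 in each list. Over all genes 3.43% were higher. The recombination, Fanconi anemia and alternative end joining lists pass that share with 2 or 3 genes each, and base excision repair with 1. Without 1 library the recombination count went down to 0 (D/KO day 0 replicate 1 or WT day 0 replicate 3). The Fanconi anemia and alternative end joining counts went down to 1. Among those named above it was higher for Brca1 (1.36 ± 0.37), Brca2 (1.25 ± 0.37), Parp1 (0.56 ± 0.14), Rpa1 (0.53 ± 0.12) and Usp1 (0.68 ± 0.14), and Usp1 also rose in WT cells (1.49). The difference lost its call in 2 of the 12 fits for Brca1, without D/KO day 0 replicate 1 (1.25) or WT day 0 replicate 3 (1.20), and in 8 for Brca2 (1.05 to 1.29). Of the 24 cholesterol synthesis genes 18 rose in WT cells and 0 differed by call in either direction, with Mvd at 0.20 ± 0.22 (adjusted p = 0.697).

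Among genes also called in D/KO cells, the largest lower differences were in Klhl4 (-5.76), Dusp2 (-5.62), Apold1 (-3.41), Plvap (-3.28), Irf8 (-2.79) and Bcl6b (-2.33). Plvap, an endothelial fenestra protein (overlapping Gtpbp3), went from 345, 270 and 325 to 189, 184 and 191 CPM in D/KO cells and from a mean of 1.04 to 6.04 in WT cells. The WT day 0 means of Klhl4, Dusp2, Apold1 and Bcl6b were 0.00, 0.00, 0.0690 and 0.193 CPM, so their WT changes rest on few counts. The fitted differences of Klhl4 and Dusp2, and so their rank, depend on the prior count of the fit. The difference lost its call in 1 of 12 fits without a library for Klhl4 (-4.84) and Apold1 (-2.95), both without WT day 2 replicate 2, in 3 for Bcl6b and in 5 for Dusp2, each without a WT library. In the same libraries the 6 endothelial markers summed to 738 to 835 CPM in D/KO and 14.7 to 17.5 in WT at day 0, and the 8 immune markers, beside Irf8, to 12.8 to 13.5 and 76.7 to 148. Their part in these differences was not tested.

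With VC, D/KO day 2 was compared with D/KO day 0 plus VC, and 3765 genes were higher (23.8%) and 3742 lower (23.6%). Of the 2260 genes that rose without VC, 2085 had a positive change with VC, and 1738 were called higher, 76.9% of the list without VC and 46.2% of the list with VC. Of the 2085 that fell, 1963 had a negative change and 1659 were called lower, 79.6% and 44.3% of the lists. Calls in opposite directions numbered 56 and 27. The change with VC minus that without VC was higher for 1082 genes (6.83%) and lower for 1206 (7.62%).

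Of the 30 ribosome biogenesis genes 28 rose with VC (median 1.04), and the difference was higher for 25, with Npm1 at 1.37 ± 0.15 and Ncl at 0.88 ± 0.20. It was lower for 12 of 22 collagens, 11 of 19 crosslinking enzymes and 7 of 22 contractile genes, and higher for 1, 2 and 0 of the same lists. The arms differed at day 0, where the 8 fibroblast markers, with Col1a2 and Col3a1 among them, summed to 74700 to 81300 CPM with VC and 33100 to 56000 without, while at day 2 they summed to 29800 to 33100 and 29800 to 32000. The endothelial sum at day 0 was 263 to 304 CPM with VC and 738 to 835 without. The part of these day 0 levels in the differences was not tested. For the mitosis list 0 of 40 differed by call, while 22 rose with VC. Itgb4 reached a mean of 885 CPM with VC, and its change was larger by 2.31 ± 0.20. The change was also larger with VC for the calcium pump gene Atp2a3 (4.71), Crym (4.14), Laptm5 (4.07), the receptor gene Ret (3.71), Kank4 (3.63) and Pkp1 (3.62). It was lower for Cyp4f39 (-5.70), Fam180a (-5.12), Gna14 (-4.92), Heyl (-3.70), Ifitm1 (-2.82) and Cbln1 (-2.71), of which Cyp4f39 and Fam180a had 0 counts at day 0 without VC, so that their fitted values depend on the prior count. Among these the call was lost in 5 of 12 fits without a library for Cbln1 (-2.73 to -2.17), without day 2 plus VC replicate 1 (-3.24) or 2 (-3.26) for Heyl and without day 0 replicate 2 (3.32) or 3 (3.17) for Kank4. Crym kept its call in all 12 fits, but its value ranged from 3.62 to 7.05. Axin2 stood at a mean of 30.1 CPM at day 0 plus VC and at 0.219 at day 0 without it, so the arms differed before doxycycline.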

How the data were processed

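RNA sequencing counts of mouse tail tip fibroblasts were used. Per the paper's methods and the submitters' processing notes, the authors trimmed reads with Trim Galore after FastQC, aligned them to GRCm39 with HISAT2 and counted them per gene with featureCounts of Subread, and deposited raw counts. Tool versions, annotation release, strandedness and the handling of multimapping reads are not given in the sources used here, so reads of overlapping genes may be mixed. Of 309 genes named, 205 overlap another annotated gene. Of 56980 identifiers, 56236 (98.7%, with 99.97% of counts) were found in GENCODE M39, which gave symbols and positions.

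In R 4.3.3, edgeR 4.0.16 scaled counts by TMM (factors of 0.931 to 1.02 in the 6 libraries), filterByExpr (minimum count 10, minimum total 15) kept 15832 genes, and 1 quasi-likelihood fit of 36 libraries in 12 groups was tested two-sided with Benjamini-Hochberg adjustment per contrast at 0.05. The standard error is the absolute log2 fold change over the root of F, and the common biological coefficient of variation was 0.132. Libraries that share a group are the labelled replicates. A fold against a group at 0 uses a floor of 3 counts over its 3 libraries, and counting intervals (95%) cover counting error only. The fit was tested on simulated data.

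Named genes are the factors, Ercc1, all members of lists of 10 or fewer, the 12 largest rises and falls with a mean of at least 5 CPM in the higher group and the 6 smallest p-values each way (both without predicted genes and without overlap between the groups), up to 4 called members of other lists each way by p-value with textbook members, the 6 largest differences each way against WT and against VC among genes also called without VC, and the 20 most abundant genes. The members and lists were chosen with earlier results of these data known. Alternatives were DESeq2 1.42.0, its size factors, no filter, at least 10 counts in every library compared, only the groups compared, a log2 fold change of at least 1, and each library left out. A few genes that the rule names are not reported here.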

Additional observations from a re-analysis of the deposited data

Results flagged for a closer look

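Klhl4 and Plvap fell in D/KO cells and rose in WT cells, and the difference between the changes passed the test at -5.76 and -3.28 on the log2 scale, the former not without WT day 2 replicate 2 (-4.84). WT levels were low, at a mean of 0 CPM at day 0 and 0.158 at day 2 for Klhl4 and 1.04 and 6.04 for Plvap, against D/KO day 0 means of 30.0 and 313 CPM. The fitted difference of Klhl4 therefore depends on the prior count of the fit.

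In 9 of the named genes the change over 2 days was called in opposite directions with and without VC and the difference passed the test. Inhbb (-1.06), Col11a1 (-1.60), Col8a1 (-1.14), Igfbp3 (-1.23), Cbx7 (-1.69), C1rl (-0.95) and Axin2 (-3.70) rose without VC and fell with it. Orc2 (0.84) and Slc7a5 (1.43) fell without VC and rose with it. The fall of Orc2 without VC lost its call without day 0 replicate 1 (-0.34) or day 2 replicate 2 (-0.46).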

How the results depend on the processing

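Of 96 alternative counts of genes, 89 stayed within 1.5 times the reported count. A required log2 fold change of at least 1 left 947 higher and 610 lower genes at D/KO day 2, 310 and 162 differences from WT and 331 and 512 differences with VC. Leaving out 1 library at a time gave 1848 to 2065 higher and 1605 to 1840 lower genes, 409 to 588 higher and 307 to 556 lower differences from WT, the 307 without WT day 0 replicate 3, and 827 to 1068 higher and 947 to 1218 lower differences with VC. In lists the falls went down to 3 BMP genes without day 2 replicate 2 or 3 and to 2 adhesion genes without day 2 replicate 2 (6 without day 2 replicate 3), and the ATF4 rises to 1 without day 2 replicate 3. The p53 rises were 5 without day 0 replicate 1 and the glycolysis rises 4 without day 0 replicate 3. Rises or falls that numbered 0 to 2 in other lists moved by at most 1 gene, glycolysis aside. DESeq2 called 2245 higher and 2397 lower. A fit of only the groups compared called 1970 higher and 1969 lower. Of 564 alternative list medians 535 moved by less than the spread between replicates, and of 309 named genes 50 changed their call in at least 1 alternative, with 169 weaker and 13 stronger of 3339 values and none reversed. No paired analysis was possible because the labels number the libraries through the series and give no replicate number shared between groups, and replicate numbers here follow accession order. Genes under about 1 CPM rest on few reads, and differences between day 0 libraries limit the rest.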
